A study of Mus musculus with 14 samples.

Results

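The growth hormone, STAT5 and IGF1 axis was followed in mouse liver through 10 genes: the growth hormone receptor gene Ghr, the signal transducer genes Stat5a and Stat5b, the feedback inhibitor genes Socs2 and Cish, and the IGF system genes Igf1, Igfals, Igfbp1, Igfbp2 and Igfbp4. The genes were chosen by name from the 24411 genes counted. All 10 passed the filter on low counts, which left 9644 genes. Livers came from male littermates of 5 to 7 months, all with floxed Rbbp5 alleles. WT mice were Rbbp5 flox/flox; Alb-CRE(-/-), and LKO mice (written RRBP5 LKO in the sample labels) were Rbbp5 flox/flox; Alb-CRE(+/-). The Alb promoter drives the recombinase in hepatocytes, whereas RNA was taken from whole liver, so the other liver cells of LKO mice keep the gene. RBBP5 is a shared subunit of COMPASS-type histone methyltransferases, which place methyl groups on histone H3. Each genotype received a single intraperitoneal injection of tunicamycin at 0.05 mg/kg, in 500 µl of PBS with 3% DMSO, or the same vehicle alone, and liver was collected 8 h later. Tunicamycin blocks N-linked glycosylation and stresses the endoplasmic reticulum (ER). The comparisons ask how a low dose of this agent, the loss of Rbbp5, and their combination change liver RNA. The WT groups had 3 libraries each and the LKO groups 4 each. Libraries 3 and 4 of LKO mice given vehicle differed by close to counting error alone (chi-square per degree of freedom 1.12, against 3.38 to 25.9 in the other 17 pairs of replicates) and were summed, so 13 samples are compared, in groups of 3, 3, 3 and 4. The labels do not say whether each library is a separate mouse, and p-values measure only the spread between these samples.

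Growth hormone from the pituitary binds its receptor on hepatocytes and activates the kinase JAK2, which phosphorylates STAT5B and STAT5A. The STAT5 proteins then bind DNA and turn on Igf1, Igfals, Socs2 and Cish, and SOCS2 and CISH in turn dampen the receptor's signal. Liver is the main source of circulating IGF1, which travels in blood bound to IGF binding proteins and to the acid labile subunit encoded by Igfals. Pulsatile growth hormone in male mice also maintains sex-biased liver genes, among them the major urinary protein (Mup) genes. Growth hormone itself was not measured, and RNA does not report STAT5 phosphorylation.

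STAT5 dimers recognise the palindrome TTCNNNGAA, which reads the same on both strands. Windows of 300 bases around RefSeq gene starts (250 before and 50 after, GRCm38.p6) were searched. Of the 10 genes 9 had an entry, with 15 windows, and Socs2 had none. The motif was found for 2 of these 9 genes, Cish and Igfals, while 9.55% of all genes in the table, and 8.3% of all 32851 windows, held it. The Cish window held 2 matches, as did 0.457% of all windows at that number or more. Cish and Igfals are both known STAT5 targets, as is Igf1, whose window held no match. That window begins at base 87860861 of chromosome 10, inside the gene as listed (from 87859056), so the outermost Igf1 start was not searched. The sequences shown were chosen because they hold a match, and capitals mark the motif. They read, 5′ to 3′ on the + strand:
Cish, chr9:107296655-107296682: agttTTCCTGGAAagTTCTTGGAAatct
Igfals, upstream start, chr17:24877604-24877620: taatTTCTCAGAAaaga
Igfals, downstream start, chr17:24878169-24878185: ggtgTTCCTAGAAgagg
The first Cish match begins at the RefSeq start itself and the other 11 bases after it. The Igfals matches lie 236 and 58 bases before 2 alternative RefSeq starts. A match in letters is not evidence of binding, and the other windows say nothing about sites farther away, where many growth hormone responsive enhancers lie.

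Sense-strand reads on genes numbered 6507018 to 13519421 per library, or 1704479 to 3551398 without the ribosomal RNA gene Rn45s. As a check of the labels, Rbbp5 was at 4.07, 6.41 and 5.10 CPM (read counts relative to the TMM-scaled library size) in WT vehicle and at 4.15, 1.90 and 2.79 in LKO vehicle samples. After tunicamycin it was at 5.37, 5.03 and 5.71 in WT and from 2.06 to 3.46 in LKO samples. The LKO/WT difference passed the test when averaged over treatments (log2 fold change -0.89 ± 0.18 SE, edgeR adjusted p = 0.0181), although LKO vehicle 1 lay among the WT values. Hspa5, which encodes the main ER chaperone BiP, was at 854, 313 and 786 CPM in WT tunicamycin samples 1 to 3, against 197 to 253 in WT vehicle and 142 to 229 in LKO tunicamycin samples. WT tunicamycin 2 thus stood below the other two, and its Ddit3, an ER stress transcription factor gene, was at 1.30 CPM, within the WT vehicle range of 0.641 to 1.89. Over all genes it was WT tunicamycin 3 that stood apart, with a chi-square per degree of freedom of 25.9 and 25.8 against samples 1 and 2, which differed by 6.23 from each other. Without WT tunicamycin 3, 615 genes were called for tunicamycin in WT, against 35 with it and 0 without WT tunicamycin 1.

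On the length-scaled FPKM values of the authors, which allow levels of different genes to be compared, Igfbp4 was the highest of the 10 genes, with a mean of 53.2 FPKM over the 13 samples. Its range of 46.9 to 59.6 FPKM did not overlap that of Ghr, the next in order at a mean of 27.8 (19.3 to 37.4). Igf1 had a mean of 25.5 FPKM (21.1 to 30.7) and overlapped Ghr. Igfbp2 followed at 9.71 FPKM and Igfbp1 at 7.47, and both stood above the mean of Igfals at 3.27, although the range of Igfbp1, 0.493 to 19.7, spanned that of Igfals. Both STAT5 genes and both feedback inhibitors were low. Stat5b had a mean of 0.989 FPKM, Socs2 0.836, Cish 0.382 and Stat5a 0.275, and neighbours in this order overlapped. All samples of Stat5b (0.749 to 1.31 FPKM) lay above all samples of Stat5a (0.149 to 0.401).

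**Figure D1:**
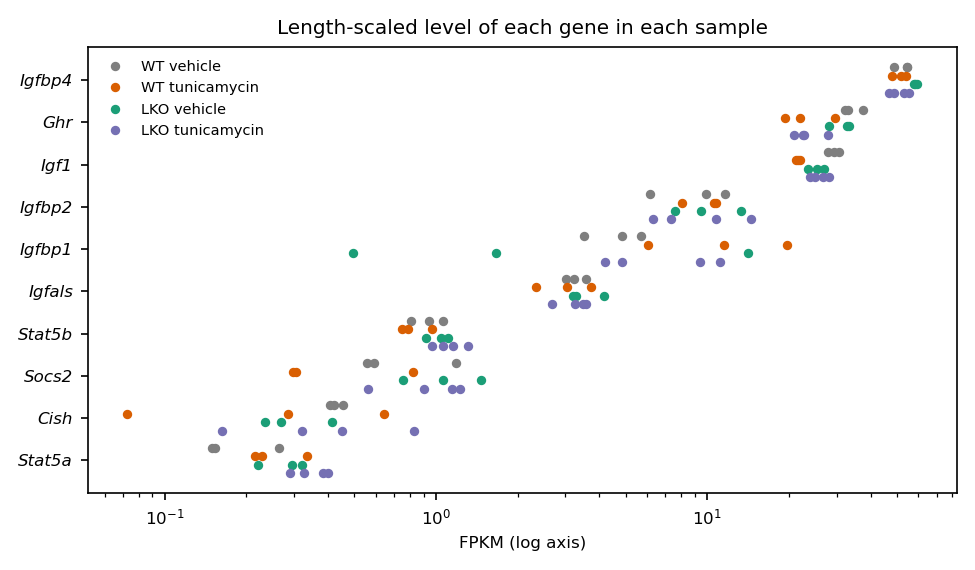
FPKM of each gene (log axis) in each of the 13 samples, coloured by group, with 1 point per sample and genes ordered by their mean. Igfbp4, Ghr and Igf1 lie above 19 FPKM in every sample, and Igfbp1 spreads from 0.493 to 19.7.

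Few differences of the axis genes passed the tests between groups, and the intervals of Igfbp1, Cish and Socs2 were wide. None of the 10 genes passed an adjusted p of 0.05 in tunicamycin against vehicle in WT, where 0.363% of all genes tested were called, or in LKO, where 0.0311% were called. None passed in LKO against WT with vehicle (0.0415% of all genes called) or after tunicamycin (0.861%), and none in the interaction of genotype and tunicamycin (0%). At an unadjusted p under 0.05 the counts were 1, 1, 0, 1 and 0 of the 10 genes in these 5 comparisons, while the shares of all genes were 14.8, 12.2, 8.15, 15.8 and 4.91%. The genes divided evenly between directions, with 5 fitted higher and 5 lower after tunicamycin in either genotype. Their median log2 difference was -0.0047 in WT and -0.03 in LKO, beside 0.01 and 0.0045 over all genes. Because groups of 3 or 4 have little power, the effects were also averaged over genotypes or treatments in the same model, a contrast added after the separate values had been seen. In the averaged tunicamycin effect, 4.32% of all genes were called, Ghr among them as 1 of the 10, and at an unadjusted p under 0.05 the count was again 1, beside 20.2% of all genes. In the averaged LKO effect 2.21% of all genes were called, and none of the 10 (1 at an unadjusted p under 0.05, beside 18% of all genes). The 19 calls of axis and list genes in these comparisons, the Ghr call among them, were all lost in limma fits to the unfiltered FPKM values (adjusted p 0.0718 to 0.687), and 9 of them were kept on FPKM with the count filter.

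**Figure D2:**
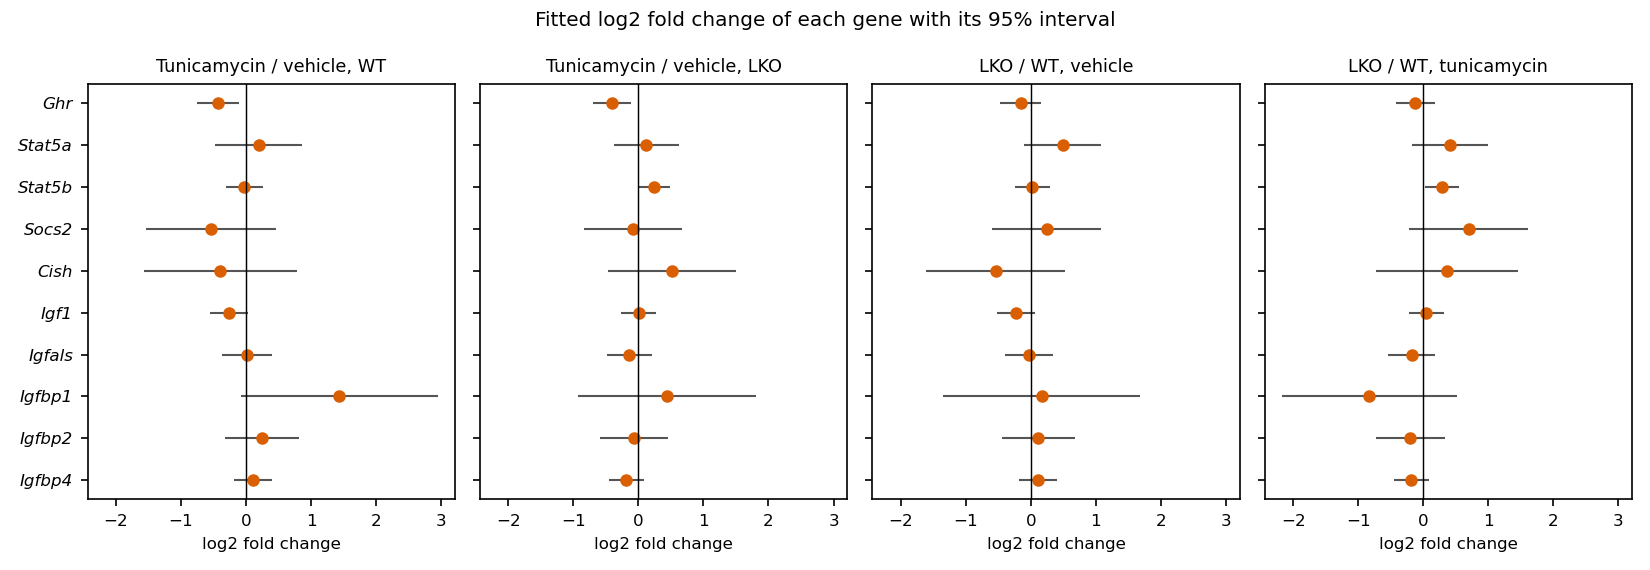
Fitted log2 fold change of each of the 10 genes (points) with its 95% interval (bars) in the 4 comparisons between groups. The intervals of Ghr lie below 0 in both tunicamycin panels, those of Igfbp1, Cish and Socs2 are wide, and no gene passed an adjusted p of 0.05.

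The growth hormone receptor gene was lower after tunicamycin in both genotypes. Ghr (chromosome 15, 3317755 to 3583352, mm10) was at 222, 261 and 235 CPM in WT vehicle samples 1 to 3 and at 154, 160 and 218 in WT tunicamycin samples. In LKO it was at 201, 223 and 221 CPM with vehicle and at 155, 154, 155 and 187 after tunicamycin. Each tunicamycin group lay wholly below its vehicle group, with WT tunicamycin 3 and LKO tunicamycin 4 closest to the vehicle values. The group means were 240 ± 19.8 (SD, n = 3) and 177 ± 35.4 CPM (n = 3) in WT, and 215 ± 12.1 (n = 3) and 163 ± 16.3 CPM (n = 4) in LKO. The fitted difference was -0.43 ± 0.15 (SE, 95% interval -0.75 to -0.11, adjusted p = 0.189) in WT and -0.40 ± 0.14 (-0.70 to -0.11, adjusted p = 0.286) in LKO, on the log2 scale. Without WT tunicamycin 3 the WT difference was -0.61 and was called (adjusted p = 0.0141). Averaged over genotypes, Ghr fell to 0.748 of its vehicle level (log2 -0.42 ± 0.10, -0.64 to -0.20, adjusted p = 0.0310). This call is marginal. It was kept without WT tunicamycin 3, LKO vehicle 1, LKO vehicle 2 or LKO tunicamycin 4, and lost in the other 9 of the 13 fits that each left out 1 sample (adjusted p 0.0581 to 0.0920), while the log2 difference stayed between -0.51 and -0.37. The interaction was 0.03 (-0.41 to 0.47), an interval that leaves room for a moderate difference between genotypes. Within WT tunicamycin, sample 3, with Hspa5 at 786 CPM, had the highest Ghr, and sample 2, with Hspa5 at 313 CPM, had a Ghr level close to that of sample 1. Between genotypes, Ghr differed by -0.15 ± 0.15 with vehicle and -0.12 ± 0.14 after tunicamycin, and these groups overlapped. In bulk liver, fewer cells of a type and less RNA per cell cannot be told apart, here and for each gene below.

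**Figure D3:**
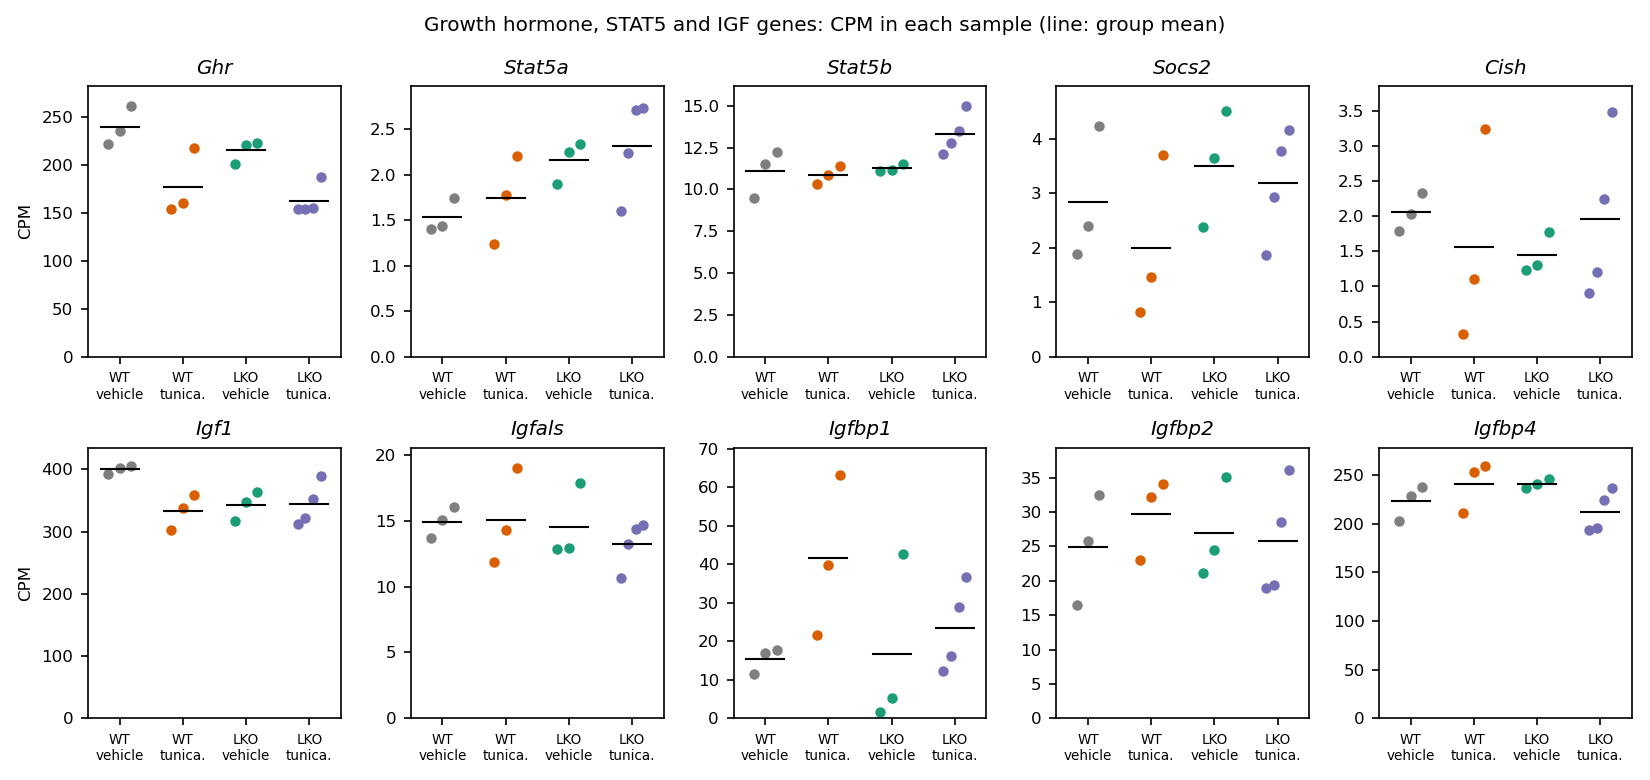
CPM of the 10 genes in each sample (points) with group means (lines), each panel from 0 on its own scale. Both tunicamycin groups of Ghr sit below their vehicle groups, and the Igfbp1 panel shows the LKO vehicle sample at 42.7 CPM far above the other LKO vehicle samples.

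The STAT5 genes lie side by side on chromosome 11 (Stat5b 100780731 to 100850585, Stat5a 100859351 to 100885169). Stat5b, the more abundant transducer in liver, was at 11.5, 9.48 and 12.2 CPM in WT vehicle, 11.4, 10.9 and 10.3 in WT tunicamycin, 11.1, 11.5 and 11.1 in LKO vehicle, and 13.5, 12.8, 12.1 and 15.0 in LKO tunicamycin samples. The LKO tunicamycin samples lay above all LKO vehicle and all WT tunicamycin samples, although LKO tunicamycin 3 was below the highest WT vehicle sample. The fitted difference was 0.24 ± 0.12 (-0.0032 to 0.49, adjusted p = 0.420) for tunicamycin in LKO and 0.29 ± 0.12 (0.03 to 0.56, adjusted p = 0.267) for LKO against WT after tunicamycin. In WT the tunicamycin difference was -0.02 (-0.31 to 0.26), and with vehicle the LKO/WT difference was 0.03 (-0.25 to 0.30). Stat5a rested on 8 to 32 reads per sample. It was at 1.44, 1.41 and 1.75 CPM in WT vehicle and at 2.25, 2.34 and 1.90 in LKO vehicle samples, with no overlap. After tunicamycin it was at 2.20, 1.78 and 1.23 CPM in WT and 1.60, 2.73, 2.24 and 2.71 in LKO samples, which overlapped. The LKO/WT difference of Stat5a was 0.49 ± 0.28 (adjusted p = 0.676) with vehicle and 0.41 ± 0.27 (adjusted p = 0.505) after tunicamycin, and 0.45 ± 0.20 (0.04 to 0.86, adjusted p = 0.235) when averaged.

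The feedback inhibitors are the most direct transcriptional readouts of STAT5, and both were too low here for small changes to be detectable. Socs2 (chromosome 10, 95411490 to 95416857) had 6 to 50 reads per sample. It was at 2.39, 4.23 and 1.89 CPM in WT vehicle, 0.826, 1.46 and 3.70 in WT tunicamycin, 4.50, 3.65 and 2.37 in LKO vehicle, and 1.87, 4.16, 3.77 and 2.93 in LKO tunicamycin samples. WT tunicamycin 1 and 2 were the lowest samples, and WT tunicamycin 3 lay among the vehicle samples. The tunicamycin difference was -0.53 ± 0.47 in WT and -0.08 ± 0.35 in LKO, and LKO against WT after tunicamycin was 0.70 ± 0.43 (-0.22 to 1.61, adjusted p = 0.468). Without WT tunicamycin 3 these values were -1.34 in WT and 1.5 between genotypes, and without WT tunicamycin 1 they were -0.14 and 0.29, with none called. Cish (chromosome 9, 107296689 to 107301961) had 2 to 32 reads. It was at 2.04, 1.79 and 2.33 CPM in WT vehicle samples, above LKO vehicle at 1.78, 1.24 and 1.31 although WT vehicle 2 and LKO vehicle 1 nearly met. After tunicamycin it ran from 0.324 to 3.24 CPM in WT, with samples at 1.10, 0.324 and 3.24, and was at 1.20, 0.911, 2.24 and 3.47 in LKO. The spread within each tunicamycin group thus exceeded the gap between the vehicle groups. The LKO/WT difference with vehicle was -0.54 ± 0.51 (adjusted p = 0.827), and the interval of the tunicamycin difference in WT, -1.56 to 0.78, covers both a loss and a gain. That difference, -0.39, was -1.45 without WT tunicamycin 3 and 0.058 without WT tunicamycin 2. WT tunicamycin 3 was the highest of its group for Socs2, Cish and Ghr alike, and WT tunicamycin 2 the lowest for Cish.

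Igf1 was one of the steadiest genes of the axis. Igf1 (chromosome 10, 87859056 to 87937047), the hormone itself, was at 393, 402 and 406 CPM in WT vehicle samples and at 302, 358 and 338 in WT tunicamycin samples. It was at 364, 348 and 317 CPM in LKO vehicle and 322, 389, 313 and 353 in LKO tunicamycin samples. WT vehicle samples were the top 3 of the 13 and did not overlap any other group, and the remaining groups overlapped one another. The group means were 400 ± 6.51 (SD, n = 3), 333 ± 28.3 (n = 3), 343 ± 23.7 (n = 3) and 344 ± 34.5 CPM (n = 4) in the same order. The fitted log2 difference was -0.27 ± 0.14 (-0.56 to 0.03, adjusted p = 0.385) for tunicamycin in WT, 0.0049 ± 0.13 in LKO (-0.27 to 0.28), -0.22 ± 0.14 (adjusted p = 0.705) for LKO with vehicle and 0.05 ± 0.13 for LKO after tunicamycin. The interaction, 0.27 ± 0.19 (-0.13 to 0.67), did not pass the test (adjusted p = 0.982). On the authors' FPKM the WT tunicamycin samples (21.1 to 22.0) lay below the LKO tunicamycin samples (23.8 to 28.0), and with a pseudocount of 0.1 the difference was -0.44 for tunicamycin in WT, 0.26 for LKO after tunicamycin and 0.47 for the interaction, with none called. Igfals (chromosome 17, 24878770 to 24882008), whose product holds IGF1 in a large serum complex, was at 13.7, 16.0 and 15.0 CPM in WT vehicle and 14.3, 19.0 and 11.9 in WT tunicamycin samples. In LKO it was at 12.9, 17.9 and 12.8 CPM with vehicle and from 10.7 to 14.7 after tunicamycin. All groups overlapped, and the differences lay between -0.18 and 0.01 on the log2 scale, the largest being -0.18 ± 0.17 for LKO against WT after tunicamycin.

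Among the binding proteins, Igfbp1 was by far the most variable. Igfbp1 (chromosome 11, 7197787 to 7202546) encodes a short-lived binding protein that restrains IGF1 and is known to rise with fasting, low insulin and cell stress. Its CPM spanned 36.1-fold over the 13 samples (coefficient of variation 71.7%), against 1.34-fold for Igf1 and for Igfbp4. It was at 11.5, 17.8 and 17.1 CPM in WT vehicle and 63.3, 21.6 and 39.8 in WT tunicamycin samples, which did not overlap. In LKO it was at 5.33, 1.75 and 42.7 CPM with vehicle and at 16.1, 36.7, 28.8 and 12.4 after tunicamycin. The LKO vehicle value of 42.7 comes from the summed libraries 3 and 4, with 341 and 378 reads each, whereas samples 1 and 2 had 45 and 24 reads. The tunicamycin difference was 1.44 ± 0.72 (-0.08 to 2.95, adjusted p = 0.359) in WT and 0.44 ± 0.65 (-0.93 to 1.81, adjusted p = 0.846) in LKO. Averaged over genotypes it was 0.94 ± 0.48 (adjusted p = 0.296). The outcome turns on 1 sample: without the summed LKO vehicle libraries 3 and 4 the averaged tunicamycin difference was 2.14 (adjusted p = 0.0218), that in LKO alone 2.83 (adjusted p = 0.18), and the averaged LKO/WT difference -1.53 (adjusted p = 0.0189). With that sample, the LKO/WT difference was 0.17 ± 0.72 with vehicle and -0.83 ± 0.64 after tunicamycin. Hspa5 was higher in that sample too, at 173 CPM against 127 and 117 in the other LKO vehicle samples, and its part in the Igfbp1 value was not tested. Within WT tunicamycin, the samples with Hspa5 at 854 and 786 CPM had the 2 highest Igfbp1 values, and sample 2 the lowest of both.

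Igfbp2 and Igfbp4, the other binding proteins made in liver, showed no difference beyond the spread. Igfbp2 (chromosome 1, 72824480 to 72852471) ran from 16.5 to 32.5 CPM in WT vehicle, 23.0 to 34.0 in WT tunicamycin, 21.2 to 35.1 in LKO vehicle and 19.0 to 36.2 in LKO tunicamycin samples. Its differences lay between -0.20 and 0.25 with standard errors of 0.25 to 0.27. Igfbp4 (chromosome 11, 99041260 to 99052643) was at 203, 238 and 228 CPM in WT vehicle, 211, 253 and 259 in WT tunicamycin, 246, 237 and 240 in LKO vehicle, and 193, 237, 196 and 225 in LKO tunicamycin samples. The LKO tunicamycin samples were all below the LKO vehicle samples, by a narrow margin for sample 2, and the fitted difference was -0.18 ± 0.13 (-0.45 to 0.09, adjusted p = 0.621). In WT the tunicamycin difference was 0.11 ± 0.14. Counting genes whose 2 groups did not overlap, 3 of the 10 stood apart after tunicamycin in WT (Ghr, Igf1 and Igfbp1, beside 17.3% of all genes tested) and 3 in LKO (Ghr, Stat5b and Igfbp4, beside 11.6%). With vehicle, 3 of the 10 stood apart between LKO and WT (Stat5a, Igf1 and Cish, beside 15.1%), and after tunicamycin 1 did (Stat5b, beside 12.9%).

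In the wider signalling machinery around the receptor, the calls of the separate comparisons were those between genotypes after tunicamycin. Of 22 genes listed for growth hormone receptor signalling, 20 were tested. None was called for tunicamycin in either genotype or for LKO with vehicle, and after tunicamycin 1 was called higher and 1 lower in LKO, where 0.861% of all genes were called. Sirpa, a receptor-type regulator known to be phosphorylated downstream of JAK2 and also abundant on macrophages, rose in LKO after tunicamycin (log2 0.99 ± 0.20, adjusted p = 0.0332). Its values were 4.13, 5.67 and 3.55 CPM in WT and 6.53, 8.33, 11.2 and 9.01 in LKO samples, which did not overlap. The averaged LKO effect of Sirpa was 0.77 (adjusted p = 0.0124) and was called in all 13 fits without 1 sample. Its call after tunicamycin alone was lost without WT vehicle 1, WT tunicamycin 1 or 3, or LKO tunicamycin 2, 3 or 4 (adjusted p 0.0518 to 0.165). Socs3, an inhibitor of JAK kinases induced mainly by cytokines, was lower in LKO after tunicamycin (log2 -1.69 ± 0.38, adjusted p = 0.0459). It was at 7.98 and 7.13 CPM in WT tunicamycin 1 and 2 but at 2.16 in sample 3, which lay among the LKO values of 1.47 to 2.60. This call was kept only without WT tunicamycin 3 or an LKO vehicle sample, and lost in 9 of 13 such fits (adjusted p 0.0657 to 0.219). The averaged LKO effect of Socs3 was -1.22 ± 0.29 (adjusted p = 0.0427), called only without WT tunicamycin 3, LKO vehicle 1 or LKO tunicamycin 2 among these fits (0.0507 to 0.122 in the other 10). Socs7, a further member of the SOCS family, fell after tunicamycin when averaged over genotypes (log2 -0.53 ± 0.12, adjusted p = 0.0244). It was at 4.43 to 4.74 CPM in WT vehicle and 2.61 to 3.09 in WT tunicamycin, and at 4.51 to 5.40 and 3.51 to 4.45 in the LKO groups. Leaving out any WT vehicle sample or WT tunicamycin 1 or 2 ended the Socs7 call (adjusted p 0.0508 to 0.0766). In the interaction the lowest p of the list was that of Irs1, an insulin and IGF1 receptor substrate, at 0.65 (adjusted p = 0.935).

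Of 14 further IGF system genes (receptors, other binding proteins and proteases), 8 were tested. In WT after tunicamycin 7 of the 8 were fitted lower (median log2 -0.27) and in LKO 6 of the 8 higher (median 0.06), with none called. In LKO after tunicamycin all 8 were fitted higher than in WT (median 0.49, beside -0.01 over all genes), with 4 at an unadjusted p under 0.05 (15.8% of all genes) and none called. The lowest p in that comparison was that of Htra1, a serine protease that can cleave IGF binding proteins, which was at 0.826, 0.324 and 0.463 CPM in WT and 0.933, 1.56, 1.22 and 2.82 in LKO tunicamycin samples. Htra1 was called in the averaged LKO effect (log2 1.30 ± 0.31, adjusted p = 0.0427), with 2 to 26 reads per sample. The call was kept only without LKO vehicle 3 and 4, LKO tunicamycin 1 or LKO tunicamycin 3 (adjusted p 0.0537 to 0.0955 in the other 10 fits). Insr, the insulin receptor gene, had the lowest p for tunicamycin in WT (log2 -0.27 ± 0.12, adjusted p = 0.307). Igfbp3, whose product carries most circulating IGF1 and which comes from nonparenchymal liver cells, had the lowest p for tunicamycin in LKO (-0.72 ± 0.33, adjusted p = 0.396).

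Male-biased genes that depend on growth hormone were lower in LKO liver at several of the best known members. Of 26 listed genes 22 were tested, and in the averaged LKO effect 18 of 22 were fitted lower (median log2 -0.27, beside -0.0039 over all genes, of which 50.7% were fitted lower). Of these, 4 were called lower and none higher (0.861% of all genes called lower). Slco1a1, an organic anion transporter, fell to 0.499 of the WT level (log2 -1.0 ± 0.20, adjusted p = 0.0164). It was at 235, 248 and 208 CPM in WT vehicle and 98.8, 76.8 and 137 in LKO vehicle samples, and at 147, 93.7 and 200 and then 109, 90.7, 43.9 and 80.8 in the WT and LKO tunicamycin samples. The vehicle groups were far apart, and the tunicamycin groups overlapped at WT tunicamycin 2. Mup3, a pheromone-binding urinary protein, fell to 0.533 (log2 -0.91 ± 0.18, adjusted p = 0.0171). It ranged from 2116 to 2377 CPM in WT vehicle, 1386 to 2018 in WT tunicamycin, 1126 to 1322 in LKO vehicle and 453 to 1259 in LKO tunicamycin samples, and within each treatment the genotypes did not overlap. Cyp7b1, an oxysterol hydroxylase, fell to 0.565 (log2 -0.82, adjusted p = 0.0348) and Gstp1, a glutathione transferase, to 0.701 (log2 -0.51, adjusted p = 0.0379). The calls of Slco1a1 and Mup3 were lost without WT vehicle 1 or WT vehicle 2 (adjusted p 0.0501 to 0.0558). Without either of them none of the 22 was called. The Cyp7b1 call was lost without any WT vehicle sample, WT tunicamycin 1 or LKO tunicamycin 1, 3 or 4 (adjusted p 0.0567 to 0.0867), and that of Gstp1 was kept only without WT vehicle 3, WT tunicamycin 1 or 2, LKO vehicle 3 and 4 or LKO tunicamycin 4 (adjusted p 0.0585 to 0.106 in the other 8 fits). In the separate comparisons none of the 22 was called, with 15 fitted lower with vehicle and 18 after tunicamycin, and the lowest p were those of Slco1a1 with vehicle (adjusted p = 0.260) and Cyp7b1 after tunicamycin (adjusted p = 0.0744).

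The same list after tunicamycin was also fitted mostly lower, 18 of 22 in the averaged effect (median log2 -0.33, beside 0.0092 over all genes, 48.5% of them lower), with 2 called lower and none higher (2.15% of all genes called lower). Cyp4a12b, a fatty acid hydroxylase, fell to 0.409 of its vehicle level (log2 -1.29 ± 0.23, adjusted p = 0.0123) and was called in all 13 fits without 1 sample. It was at 22.0, 18.8 and 19.4 CPM in WT vehicle, 4.68, 4.86 and 15.9 in WT tunicamycin, 13.3, 13.1 and 24.3 in LKO vehicle and 5.71 to 7.60 in LKO tunicamycin samples. Each tunicamycin group lay below its vehicle group, with WT tunicamycin 3 again nearest to vehicle. Ugt2b1, a glucuronosyltransferase, fell to 0.451 (log2 -1.15, adjusted p = 0.0353), a call kept only without WT tunicamycin 3, LKO vehicle 2 or LKO tunicamycin 4 (adjusted p 0.0629 to 0.0991 in the other 10 fits). Cyp4a12b and its near copy Cyp4a12a, and the Mup and Ugt2b genes, share long stretches of sequence, and reads that match more than 1 place are counted for no gene, so single members are uncertain.

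Summed over the 20 counted Mup genes, reads assigned to one member in place of another no longer matter, but reads that match several members are still left out. Mup16 and Mup17 thus have 0 counted reads at mean levels of 94.8 and 199 FPKM. The sum was 4855, 4766 and 3956 CPM in WT vehicle, 3374, 2817 and 3886 in WT tunicamycin, 2603, 3017 and 3539 in LKO vehicle, and 2812, 2284, 1964 and 2501 in LKO tunicamycin samples. Within each treatment the LKO samples lay below the WT samples, by only a few CPM between LKO tunicamycin 1 and WT tunicamycin 2. Tunicamycin samples lay below vehicle in WT and overlapped vehicle in LKO. As means of log2 values, LKO was at 69.2% of WT within treatments and tunicamycin at 76.0% of vehicle within genotypes, or 70.7 and 71.1% when scaled by total counts without Rn45s. This sum was formed after the values were seen and was not tested. Mup3 carries much of the gap: without it, the sum averaged 2237 CPM in WT vehicle (1840 to 2478) and 1833 in LKO vehicle (1477 to 2217), and these groups overlapped. Mup20, named here after its values were seen, averaged 1361 CPM in WT vehicle and 1464 in LKO vehicle.

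**Figure D4:**
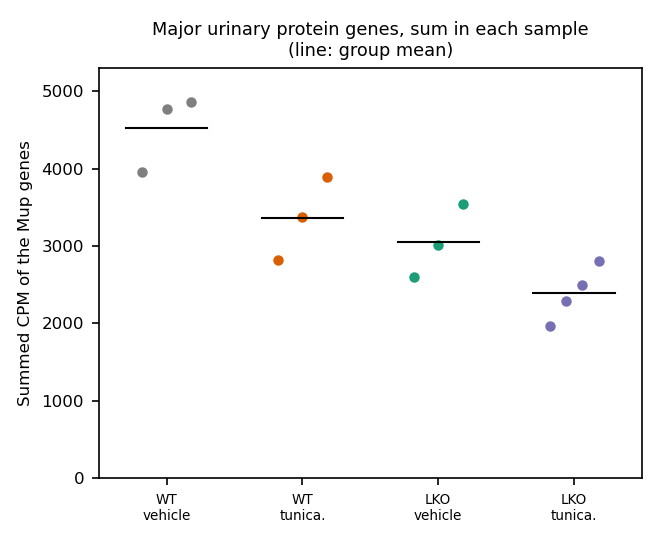
Summed CPM of the 20 Mup genes in each sample (points) with group means (lines), on an axis from 0. WT vehicle samples sit between 3956 and 4855, and LKO tunicamycin samples between 1964 and 2812.

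Of 18 female-biased genes 5 passed the filter. Among the others Cyp2a4, which has a near-identical copy, had a mean of 2.64 FPKM but only 0.475 CPM in counted reads. Atp6v0d2, a proton pump subunit, was higher in LKO after tunicamycin (log2 1.71 ± 0.38, adjusted p = 0.0459) and in the averaged LKO effect (1.18, adjusted p = 0.0345). It was at 0.826, 1.78 and 0.926 CPM in WT and 4.13, 4.55, 3.77 and 2.93 in LKO tunicamycin samples, with no overlap. The call after tunicamycin was kept only without WT vehicle 1, WT tunicamycin 2, LKO vehicle 2 or LKO vehicle 3 and 4 (adjusted p 0.0505 to 0.199 in the other 9 fits). The averaged call was kept only without WT vehicle 3, WT tunicamycin 2, LKO vehicle 1, LKO vehicle 3 and 4 or LKO tunicamycin 4 (0.0517 to 0.0876 in the other 8). Cyp17a1, a steroid hydroxylase, rose after tunicamycin when averaged (log2 3.04 ± 0.61, adjusted p = 0.0163). Its group means were 0.767 and 8.69 CPM in WT and 3.43 and 20.7 in LKO, without and with tunicamycin, and the call was lost only without WT tunicamycin 2 (adjusted p = 0.0504). Acot3, an acyl-CoA thioesterase, fell in the averaged tunicamycin effect (log2 -1.91 ± 0.50, adjusted p = 0.0407), from means of 2.58 to 0.794 CPM in WT and 1.65 to 0.385 in LKO. That call was kept only without WT vehicle 2, WT tunicamycin 3, LKO vehicle 2 or LKO tunicamycin 2 (adjusted p 0.0513 to 0.156 in the other 9 fits).

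Insulin and fasting also control Igfbp1, so genes that answer to them were listed beside the axis. Of 12 genes 11 were tested, and 10 of the 11 were fitted lower after tunicamycin in WT (median log2 -0.31), in LKO (-0.26) and when averaged (-0.31), where 48.5% of all genes were fitted lower. None was called in the separate comparisons, and 2 were called lower in the averaged one, beside 2.15% of all genes. Foxo3, a transcription factor that insulin signalling inactivates, fell from 11.2 to 7.50 CPM in WT and 11.3 to 8.64 in LKO (log2 -0.49 ± 0.12, adjusted p = 0.0322). The Foxo3 call was kept without WT vehicle 1, WT tunicamycin 3, LKO vehicle 1, LKO vehicle 2 or LKO tunicamycin 4 and lost in the other 8 fits (adjusted p 0.0533 to 0.0891). In the averaged LKO effect 5 of the 11 were fitted higher and 6 lower, with a median of -0.01 and none called. The lowest p between genotypes were those of Foxo1 with vehicle (-0.17, adjusted p = 0.827) and Sesn1, a stress-induced gene, after tunicamycin (0.67, adjusted p = 0.295).

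**Figure D5:**
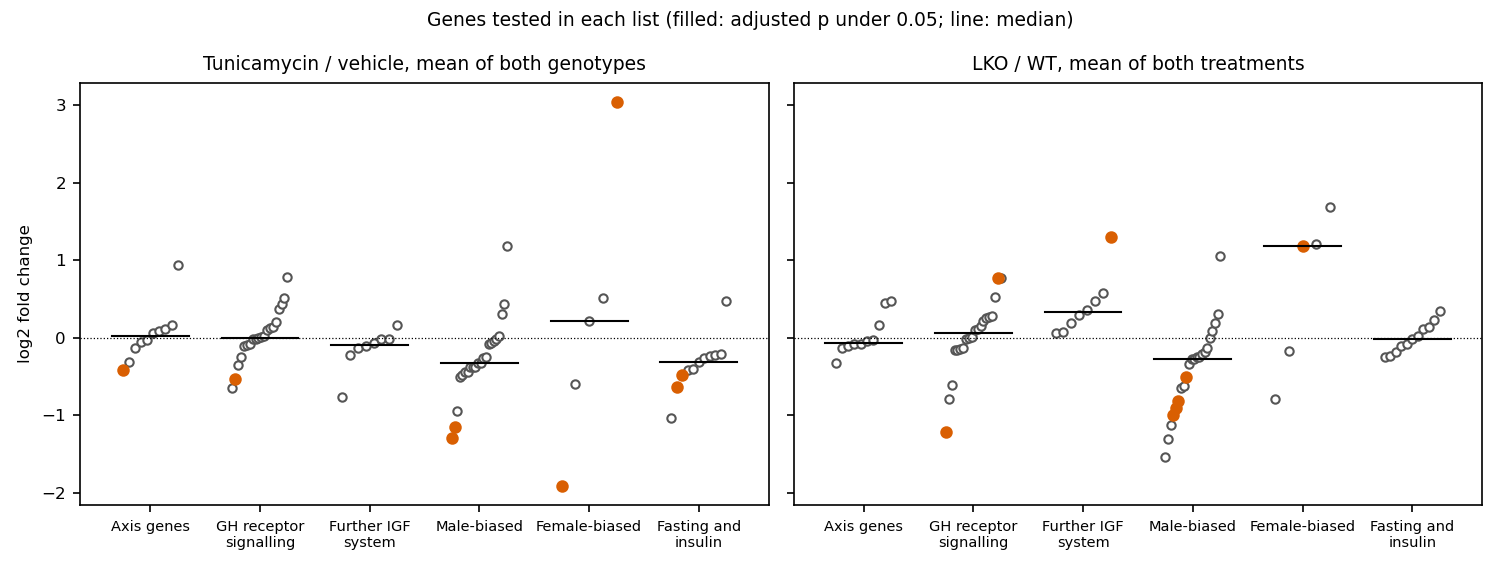
Fitted log2 fold changes of the genes tested in each list (points, filled where the adjusted p is under 0.05, lines at the list median) for the averaged tunicamycin effect and the averaged LKO effect. The male-biased list has its median below 0 in both panels (-0.33 and -0.27), and the 10 axis genes centre near 0.

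Markers of some other liver cells moved with the same groups. Those of the endothelium were split. Of 7 tested, 3 were fitted higher and 4 lower in the averaged tunicamycin effect. In the averaged LKO effect 4 were higher and 3 lower, and none was called in either. The 7 stellate and fibroblast markers tested, of 8, were all fitted higher in the averaged LKO effect, where 50.7% of all genes were fitted lower, and 3 of them were called (2.21% of all genes). Their summed level ranged from 69.0 to 111 CPM in WT vehicle, 94.0 to 133 in WT tunicamycin, 116 to 158 in LKO vehicle and 112 to 170 in LKO tunicamycin samples. The 10 Kupffer and macrophage markers were all fitted higher in the averaged tunicamycin effect, where 48.5% of all genes were fitted lower. None was called, and 4 had an unadjusted p under 0.05 (20.2% of all genes). For tunicamycin in LKO alone 6 did (12.2% of all genes), and in WT 0 did (14.8%). Sirpa and Atp6v0d2 were called higher in LKO than in WT after tunicamycin. In that comparison all 10 markers were also fitted higher (median log2 0.24), 1 of them at an unadjusted p under 0.05 (15.8% of all genes) and none called. Their sum ranged from 57.3 to 70.5, 66.2 to 89.4, 45.5 to 76.0 and 71.3 to 137 CPM in the same order. The only blood marker tested, Alas2, was called lower in the averaged tunicamycin effect (log2 -0.52), beside 2.15% of all genes called lower. Of 5 bile duct markers 2 were tested, both fitted higher in the averaged LKO effect, with 1 called (2.21% of all genes). Summed bile duct markers ranged from 8.60 to 11.7, 8.49 to 42.5, 17.4 to 55.2 and 35.8 to 111 CPM in the same order of groups. Of these Spp1, which injured cells of other types also make, reached 105 CPM in LKO tunicamycin 1, while one or more of Krt7, Krt19 and Epcam were at 0 in 4 samples. The sum of 6 hepatocyte markers ranged from 15929 to 18315, 13070 to 22809, 13758 to 22090 and 13000 to 18257 CPM and overlapped between all groups. Alb, at a mean of 14072 CPM, made up most of that sum. Counted singly, 5 of the 6 were fitted lower in the averaged tunicamycin effect (median log2 -0.14, beside 48.5% of all genes lower). In the averaged LKO effect 4 of the 6 were lower (median -0.20, beside 50.7%). After tunicamycin 5 of the 6 were lower in LKO than in WT (median -0.21). None was called in these comparisons. The part of these cells in the differences of Ghr, Stat5a, Stat5b, Sirpa, Htra1, Atp6v0d2 and the male-biased genes was not tested.

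Across the 13 samples, and among 1031 or 1032 genes at a mean log2 CPM of at least 5, the genes whose log2 CPM followed 3 axis members most closely were the following, given as a description over samples that share groups and depth. For Igf1 they were Aldh1l1 (Pearson r = 0.749) and Ywhae (0.735). For Socs2 they were Cyp7a1 (0.870), the rate-limiting enzyme of bile acid synthesis, and the lipid synthesis genes Gpam (0.844) and Fasn (0.830). For Igfbp1 they were Trp53inp1 (0.765), a stress-induced p53 target, and Sec24d (0.720), a component of the coat of vesicles that leave the ER. Named after their values were seen, Ugt2a3 (0.968), Cat (0.951) and Car3 (0.940) were closest to Ghr, and Mpeg1 (0.885), a macrophage gene, was closest to Stat5a. Within the axis the closest pair was Stat5a with Stat5b (r = 0.588), and Ghr with Igf1 reached 0.517. With group means removed the values were 0.399 and 0.125, and Igf1 with Igfbp4 was closest (0.806).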

How the data were processed

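Polyadenylated liver RNA of 14 libraries was sequenced, and per the submitters' processing notes Trimmomatic, STAR, Cufflinks and the mm10 build were used, with no versions given. The authors deposited raw STAR read counts per gene for each library, of which the sense-strand column was used (99.5 to 99.6% of stranded reads), and 1 table of FPKM values, which were used for levels between genes and for alternatives. Every column of that table belongs to a listed library (0 unused). Rn45s held 72.5 to 75.5% of reads. It stayed in the library sizes of the main fit and of every CPM value. Only the scaling by total counts left it out.

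The 2 near-duplicate LKO vehicle libraries were summed. Counts of the 9644 genes that pass edgeR's filterByExpr were scaled by TMM and fitted with edgeR 4.0.16 (R 4.3.3) quasi-likelihood over the 4 groups. Benjamini-Hochberg adjustment was over all genes tested, with a threshold of 0.05. Standard errors are the log2 fold change over the square root of F. Alternatives used DESeq2 1.42.0 and limma 3.58.1 (log2 FPKM with a pseudocount of 1 or 0.1). The code was tested on simulated data. Named genes are the 10 axis genes and, per list, each gene called and the gene with the lowest p per comparison, a rule extended to the averaged effects, which were added after values were seen. The members and lists were chosen with earlier results of these data known. Likeness is Pearson's r of log2 CPM (prior count of 2) over 13 samples. A few genes that the rule names are not reported here.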

Additional observations from a re-analysis of the deposited data

Results flagged for a closer look

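Among the 4 LKO tunicamycin samples, the only group large enough for a check of single distant samples, 32 axis and signalling genes were examined and 3 had 1 sample far from the others; chance alone flags a share of such groups of about the test's 0.05 level. Ghr was at 187 CPM in LKO tunicamycin 4, while the other samples lay between 154.2 and 154.8 CPM, a gap of 0.981 of the whole range. Irs1 was at 12.4 CPM in LKO tunicamycin 1, against 15.2 to 15.6 in the others (gap 0.878 of the range). Socs3 was at 2.60 CPM in LKO tunicamycin 2, against 1.47 to 1.63 (gap 0.857).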

How the results depend on the processing

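Of 55 results for the 10 genes, 33 kept their direction under each of the 23 or 24 settings run for them, and 81 of 1305 alternative values changed sign. For tunicamycin in WT, 35 genes were called, against 154 with DESeq2, 289 without the filter, 56 with 14 libraries, 7 with only the 2 groups, and 2, 4, 3 and 2 on log2 FPKM (pseudocount 1, pseudocount 0.1, filtered genes, without the LKO vehicle 2 column), and 0 to 615 without 1 sample (615 without WT tunicamycin 3). In LKO the 3 calls became 47 (DESeq2, Ghr among them as 1 of the 10 genes), 153 (no filter), 5 (14 libraries), and on FPKM 5 (pseudocount 0.1), 0 (filtered, 973 at an unadjusted p under 0.05) and 14 (without LKO vehicle 2), and 0 to 67 without 1 sample. For LKO with vehicle, 4 became 20 (DESeq2), 84 (no filter), 8 (total scaling), 12 (14 libraries), 25 (2 groups), 2, 1, 0 (703 at an unadjusted p under 0.05) and 14 on FPKM, and 0 to 17 without 1 sample. For LKO after tunicamycin, 83 became 138 (DESeq2), 261 (no filter), 27 (2 groups), 17, 18 and 7 (FPKM unfiltered and without LKO vehicle 2), and 0 to 183. The interaction had 0 calls with edgeR (474 at an unadjusted p under 0.05) and with DESeq2 (288), 3, 3 and 9 on FPKM, and 0 to 2 without 1 sample. The averaged tunicamycin effect had 417 calls, 764 without the filter, 668 with 14 libraries, 21, 23, 259 and 30 on FPKM, and 59 to 1085 without 1 sample. The averaged LKO effect had 213, then 514 (no filter), 31, 30 and 16 on FPKM, and 62 to 413. Of the 10 genes, the number called for averaged tunicamycin, 1, was 0 in the unfiltered FPKM fits (3 at an unadjusted p under 0.05), where Ghr had an adjusted p of 0.122, 0.118 and 0.177, and 0 to 1 without 1 sample, as were the numbers for tunicamycin in WT and the averaged LKO effect. Fitting only the 2 groups ended the calls of Sirpa (adjusted p = 0.0889) and Socs3 (0.0937) in LKO after tunicamycin, DESeq2 that of Socs7 (0.0713) and total scaling that of Gstp1 (0.0754). The labels do not say whether replicate numbers pair the samples. With group means removed, 18 same-numbered pairs had correlations of -0.118 to 0.141, with 3 over 0.1. Of 13 samples, 2 correlated best with their own number. In groups of 3 or 4 such values cannot exclude a pairing. With the replicate block the counts were 5 for tunicamycin in LKO, 0 for LKO with vehicle (842 at an unadjusted p under 0.05) and 32 after tunicamycin, and signs turned for Cish in LKO against WT after tunicamycin (-0.048), the Ghr interaction (-0.034), Igf1 (-0.013) and Igfbp2 (0.055) for tunicamycin in LKO, and Igfbp1 for LKO with vehicle (-0.25). The block also ended the calls of Sirpa (0.10) and Socs3 (0.116) after tunicamycin and the averaged calls of Socs3 (0.0722) and Htra1 (0.0672). Total scaling, which moved the median of all genes by -0.14 in WT, turned Igfals (-0.13) and Igfbp4 (-0.023) for tunicamycin in WT, Igf1 in LKO (-0.050) and the Stat5a interaction (0.011). Without the filter, Igf1 in LKO was -0.0070 and Igfals in WT -0.010. On FPKM, Igfals was -0.096 or -0.13 for tunicamycin in WT, 0.083 or 0.10 for LKO with vehicle, 0.084 or 0.11 after tunicamycin, and 0.00015, 0.0070 or 0.095 for the interaction. Igfbp4 for tunicamycin in WT was -0.041 or -0.042, Ghr in LKO after tunicamycin 0.0050 or 0.0057, Igfbp1 for LKO with vehicle -0.52 or -0.94 and its interaction 0.24, the Stat5a interaction 0.0041 and Foxo1 for LKO with vehicle 0.015. Fits without 1 sample turned small differences, which ranged as follows. For tunicamycin in WT they were -1.45 to 0.058 (Cish), -0.18 to 0.15 (Igfals), -0.019 to 0.39 (Stat5a) and -0.14 to 0.035 (Stat5b). In LKO they were -0.050 to 0.049 (Igf1), -0.23 to 0.041 (Igfals), -0.093 to 2.83 (Igfbp1), -0.28 to 0.18 (Igfbp2) and -0.33 to 0.10 (Socs2). For LKO with vehicle they were -0.21 to 0.064 (Igfals), -2.23 to 0.70 (Igfbp1), -0.14 to 0.34 (Igfbp2) and -0.084 to 0.090 (Stat5b). After tunicamycin they were -0.077 to 1.43 (Cish), -0.22 to 0.048 (Ghr), -0.019 to 0.11 (Igf1) and -0.32 to 0.017 (Igfals). For the interaction they were -0.065 to 0.20 (Ghr), -0.29 to 0.049 (Igfals), -1.53 to 1.40 (Igfbp1) and -0.27 to 0.14 (Stat5a). The cause of these changes was not tested. Reads per sample were few for Cish (2 to 32), Socs2 (6 to 50) and Stat5a (8 to 32), and a pseudocount of 1 FPKM shrinks such low genes.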
